A study of Drosophila melanogaster with 32 samples.

Results

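Argonaute 2 (Ago2) was precipitated from lysates of whole adult Drosophila melanogaster, and the small RNAs that came down with it were sequenced. The 8 Ago2 libraries of females were set against the 8 of males, out of 32 libraries in the series, of which the other 16 were Ago1 precipitates. The features were all annotated dm6 transcripts with a mean of at least 5 reads over the 16 libraries, with rows identical in every library counted once. That left 1132 of the 2303 rows of the table, since 937 rows lay under the minimum and 234 were identical to a row already kept. Each sex had 2 libraries of each of 4 kinds: wDah flies, the wild type of the study, at 5 d and at 35 d, and dFOXO-null flies at 5 d and at 35 d. The dFOXO-null flies carried foxoΔ94, a large deletion in the gene of the transcription factor dFOXO, in both sexes, and were otherwise isogenic with wDah. The deletion was not checked here, since 0 rows of the table name foxo. Each lysate pooled 40 mated flies. Whole animals were used, so gonads and all other organs entered each library, and fewer cells of a type and less RNA per cell cannot be told apart.

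Ago2 is the Argonaute of the small interfering RNA (siRNA) pathway of the fly. Dicer-2 cuts long double-stranded RNA into siRNAs, and Ago2 holds 1 strand and cleaves matching transcripts. The double-stranded RNA comes from viruses, from transposons, from pairs of overlapping transcripts and from hairpin RNA genes, whose transcripts fold back on themselves. Most microRNAs (miRNAs) are loaded into Ago1 instead, and a minor part reaches Ago2. Fragments of rRNA, tRNA, snoRNA and mRNA are also sequenced from such precipitates. A count against a transcript here is therefore the number of short reads that align to it, and not the level of the full transcript in the fly. Reads were credited to every place where they aligned, and the sources used here do not say whether strand was kept, so sense and antisense reads cannot be told apart.

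Female libraries held 645650 to 3894561 reads on transcripts (median 1297060) and male libraries 497380 to 1476920 (median 966894). Values below are reads per 1000000 reads (RPM) of these totals, given as the lowest, the median and the highest of 8 libraries. Since a read counts at every row where it aligned, these totals, RPM and class shares count alignments rather than distinct reads. Genes with many copies therefore weigh more in them. A count of 0 over the 8 libraries of a sex allows up to 0.226 RPM in females and 0.389 RPM in males, at 3 reads over the group, which covers counting error only. Counts on transcripts, in this sense, outnumbered counts of reads of up to 25 nt on mature miRNAs and transposons by 9.02 to 41.6 times in females (median 18.96) and by 2.01 to 14.5 times in males (median 5.08). Labels for sex matched the counts in every library: the summed RPM of all 61 rows of the Y chromosome in the table, of which 27 were tested, was 7.01 to 77.1 in females and 644 to 6028 in males.

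Reads of the 2 sexes differed at most tested transcripts. By edgeR's quasi-likelihood test, 735 of 1132 transcripts (64.9%) passed an adjusted p of 0.05, with 254 (22.4%) higher in females and 481 (42.5%) higher in males. The median log2 ratio of female over male over all tested rows was -0.51, so an average transcript took a lower share of the reads in females. With TMM factors, which centre the bulk of the rows, this median was -0.05 and the calls split into 340 higher in females and 340 higher in males. With the reads on miRNAs and transposons as library size the median was 1.40 and the split 680 against 80, and directions below are relative to reads on transcripts unless stated. Under the total, TMM, median-of-ratios and DESeq2 scalings alike, 254 transcripts were called higher in females and 284 higher in males, and 0 were called in opposite directions. All 8 female libraries lay above all 8 male libraries for 74 transcripts (6.54%) and below them for 79 (6.98%). Rows that share reads are not separate observations. Among the 481 higher in males were 127 mRNA rows with a long run of A or T, described below.

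**Figure D1:**
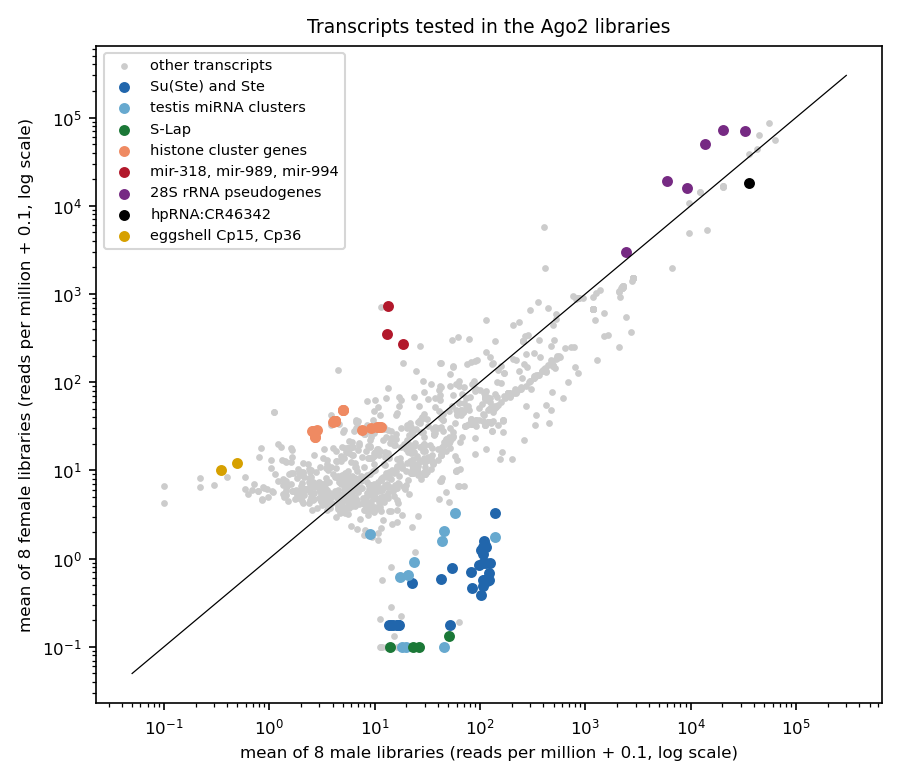
Each point is 1 of the 1132 tested transcripts, with the mean RPM of the 8 male libraries on the x axis and of the 8 female libraries on the y axis (both log scales, 0.1 added to each mean), and the line marks equal values. Stellate, Suppressor of Stellate, S-Lap and testis miRNA rows lie far below the line, and the ovary miRNAs, histone cluster genes and Cp15 and Cp36 lie above it.

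By class, pseudogene rows took 45.7% ± 9.77 (SD, n = 8) of the counted alignments in females and 27.9% ± 6.99 in males. This difference of 17.8 points was seen in 8 of 8 pairs of the same genotype, age and experiment number. An exact two-sided permutation test that exchanged sex within the 8 pairs gave p = 0.0078, the smallest it can give, and 0.0273 after Benjamini-Hochberg adjustment over the 7 classes. miRNA hairpins took 0.945% ± 0.458 in females and 3.01% ± 2.18 in males (n = 8), with males higher in 8 of 8 pairs (exact p = 0.0078, adjusted 0.0273). tRNA took 3.69% ± 1.58 in females and 6.95% ± 2.07 in males (n = 8), with males higher in 7 of 8 pairs (exact p = 0.0156, adjusted 0.0365). Other non-coding RNA was 13.2% against 19.1% (exact p = 0.0391, adjusted 0.0684, n = 8) and rRNA 20.1% against 27.0% (exact p = 0.0547, adjusted 0.0766, n = 8). With rRNA pseudogenes counted as rRNA, a class chosen after seeing the data, the share was 65.7% ± 13.8 in females and 54.7% ± 12.3 in males. Females were higher in 7 of 8 pairs (exact p = 0.0469, not adjusted). The lower rRNA share of females therefore did not extend to rRNA with its pseudogenes. mRNA was 2.10% against 2.92% (exact p = 0.0781, adjusted 0.0911, n = 8). snoRNA was 14.3% ± 9.46 against 13.2% ± 4.02 (exact p = 0.656, n = 8), and its difference changed sign on the log2 scale and without the wDah pair at 35 d of replicate 2. Within 1 experiment the 4 pairs cannot give a p under 0.125, and the pseudogene difference was 18.4 points in experiment 1 and 17.2 points in experiment 2.

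**Figure D2:**
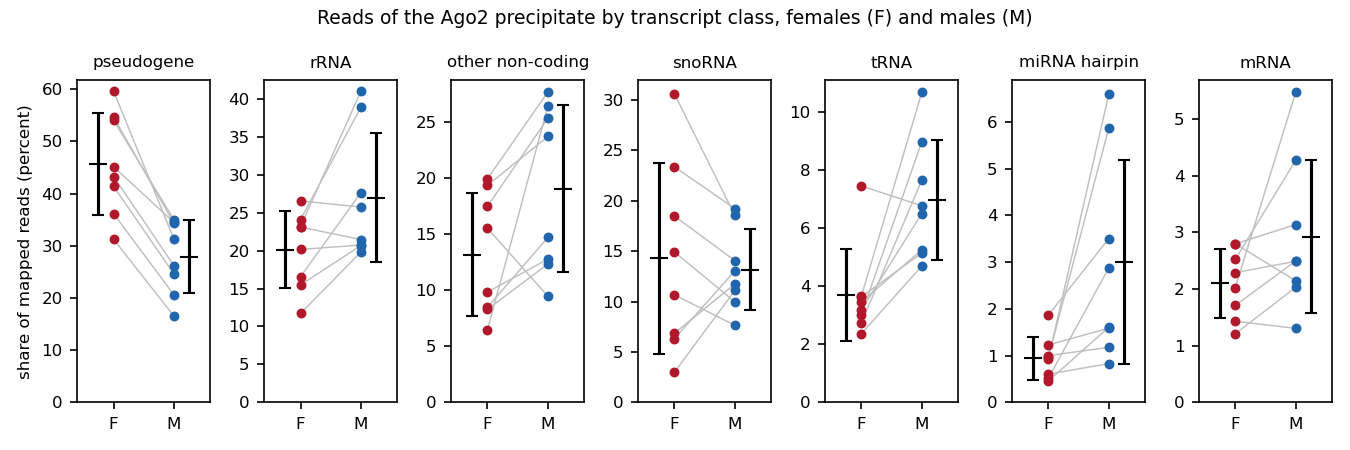
Share of mapped reads (percent, y axis, a read counting at every row where it aligned) of 7 transcript classes in each of the 16 Ago2 libraries, with grey lines joining female (F) and male (M) libraries of the same genotype, age and experiment number, and bars giving mean and SD of 8 libraries. Every line falls from F to M for pseudogenes and every line rises for miRNA hairpins.

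The ovary miRNAs were the plainest female-side group. mir-994, mir-318 and mir-989 are made mostly in the ovary, and mir-994 and mir-318 are neighbours on chromosome arm 3R. Their mature sequences are shown because their seeds (bases 2 to 8, in capitals) name the targets they could pair with, and the seeds differ. The sequences and dm6 positions are those of RefSeq.
miR-994-5p, chr3R:10408148-10408169, plus strand: cUAAGGAAauaguagccgugau
miR-318-3p, chr3R:10408344-10408365, plus strand: uCACUGGGcuuuguuuaucuca

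The mir-994 hairpin had 125, 741 and 1549 RPM in females and 3.39, 5.68 and 37.5 RPM in males, with no overlap. The log2 ratio was 5.77 ± 0.54 (SE; edgeR adjusted p = 9.01e-12). Within females the wDah libraries at 5 d were highest, at 1549 and 1226 RPM, and those at 35 d lowest, at 125 and 236 RPM, while the 4 dFOXO-null libraries lay between 289 and 917 RPM. mir-318 had 62.5, 236 and 558 RPM in females against 0.97, 10.0 and 50.9 in males (log2 3.84 ± 0.49). mir-989 had 45.98, 212 and 934 RPM in females against 0.97, 11.6 and 37.2 in males (log2 4.34 ± 0.50). Each of the 3 was higher in females in 8 of 8 pairs and at both ages. In a separate count, scaled to reads of up to 25 nt on mature miRNAs and transposons, miR-994-5p had a median of 9028 RPM in females and 23.6 in males, and miR-318-3p 3713 against 64.3.

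The other miRNA hairpins called on the female side were mir-92a, with a log2 ratio of 1.34 ± 0.33, and mir-308, with 2.91 ± 0.62. mir-92a had 37.2, 71.8 and 158 RPM in females and 20.99, 27.1 and 42.1 in males, so the groups overlapped although females were higher in 8 of 8 pairs. The mir-308 hairpin row, which lies within RpS23 on the same strand, rested on few reads, 182 in all female and 9 in all male libraries. Its mature arm miR-308-3p had 3 female and 4 male reads in the separate count, so no difference in the mature miRNA was detectable at this depth.

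Of the 68 miRNA hairpins tested, 5 were higher in females, 54 higher in males and 9 were not called, with a median log2 ratio of -2.29 (5 and 48 with TMM factors). Males held the testis miRNA clusters, which lie on arm 2L and on the X chromosome. All 11 tested members of those clusters were called higher in males, with log2 ratios from -9.17 to -2.36 that for members at 0 in females depend on the prior count. Over the 17 listed members with a row in the table, the sum was 3.27, 12.4 and 34.3 RPM in females and 119, 495 and 1292 RPM in males. The mature arms of 8 members are shown with the seed in capitals, and no seed occurs more than once among them or equals a seed of the ovary miRNAs above.
miR-976-3p, chrX:19558954-19558975, plus strand: uUGGAUUAguuaucaucaaugc
miR-975-5p, chrX:19558768-19558790, plus strand: uAAACACUuccuacauccuguau
miR-973-5p, chrX:19551546-19551570, plus strand: uGGUUGGUgguugaacuucgauuuu
miR-983-5p, chrX:4368361-4368382, minus strand: aUAAUACGuuucgaacuaauga
miR-984-5p, chrX:4368698-4368720, minus strand: uGAGGUAAauacgguuggaauuu
miR-964-5p, chr2L:5642127-5642148, plus strand: uUAGAAUAggggagcuuaacuu
miR-960-3p, chr2L:5641119-5641140, plus strand: uAUACGGUcugggacacuuuua
miR-961-5p, chr2L:5641208-5641229, plus strand: uUUGAUCAccaguaacugagau

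The mir-976 hairpin had 0 reads in all 8 female libraries and 2.63, 36.6 and 136 RPM in males, at least 194-fold higher in males at the floor of 3 reads over the group. mir-975 and mir-973 were also at 0 in every female library, and were at least 84.2-fold and at least 77.4-fold higher in males. mir-983-1 had 0, 1.42 and 6.12 RPM in females and 27.7, 110 and 337 in males (log2 -6.25 ± 0.54, edgeR adjusted p = 9.71e-13). mir-964 had 0, 2.01 and 3.10 RPM in females and 13.2, 28.3 and 93.8 in males. In the separate count of short reads, miR-976-3p was at 0 in every female library and at a median of 177 RPM in males.

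The widely expressed miRNAs were mostly higher in males as well, at smaller ratios. mir-7 had 87.7, 240 and 518 RPM in females and 399, 1289 and 5385 in males (log2 -2.87 ± 0.34), mir-999 118, 347 and 768 against 420, 2017 and 6978 (log2 -2.73 ± 0.33). mir-956 had 1125, 1637 and 3710 RPM in females and 1881, 5910 and 15708 in males (log2 -1.66 ± 0.32). Males were higher in 8 of 8 pairs for each, while the groups overlapped. mir-31a and mir-31b, whose log2 ratios were -2.84 ± 0.35 and -2.85 ± 0.36, and mir-263b, at -3.64 ± 0.37, lay further to the male side. This direction depended on the total used: relative to reads of up to 25 nt on miRNAs and transposons, miR-956-3p had a median of 37270 RPM of those reads in females and 29968 in males. On that scale miR-7-5p stayed lower in females (median 3771 against 6797, 8 of 8 pairs), as did miR-31a-5p (1929 against 3642, 8 of 8 pairs). How far the lower share of short miRNA and transposon reads in female libraries enters these ratios was not tested.

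Of 4 muscle transcripts 2 were called higher in males, beside 42.5% of all transcripts. Mlc2, a muscle myosin light chain, had 3.06, 8.09 and 28.2 RPM in females and 15.8, 67.1 and 103 in males (log2 -2.25 ± 0.37), and the muscle miRNA mir-133 had 17.5, 56.8 and 99.1 against 30.3, 233 and 756 (log2 -2.16 ± 0.36). Scaled to reads on miRNAs and transposons, miR-133-3p had a median of 955 RPM in females and 1064 in males. Females were higher in 4 pairs and males in 4. The other arm, miR-133-5p, had 5 female and 39 male reads, with males higher in 7 pairs and females in 1. Act88F and Act57B were not called. The rhodopsin gene ninaE (log2 -1.78 ± 0.36) and the arrestin gene Arr2 (log2 -1.54 ± 0.39) were both called higher in males, but with the library size from miRNA and transposon reads their log2 ratios were 0.13 and 0.38. Of 14 gut transcripts, 2 were called higher in males and 0 in females, beside 42.5% and 22.4% of all transcripts. The median log2 ratio of the 14 was 0.098. Those called were the digestive enzymes Mal-A1 (log2 -2.02 ± 0.47) and Amy-d (log2 -1.61 ± 0.38), whose ratios turned to 0.054 and 0.42 with that library size. With TMM factors 3 others were higher in females.

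Many male-side rows with wide differences came from the Stellate system of the testis. Su(Ste) repeats on the Y chromosome make small RNAs that silence the Stellate (Ste) genes of the X chromosome in the male germline. All 24 tested Su(Ste) rows, in 21 groups of near copies, were higher in males. Over all 27 Su(Ste) rows of the table, the sum was 0, 12.8 and 56.3 RPM in females and 607, 2180 and 5754 RPM in males. All 7 Ste rows tested, in 3 groups of near copies, were also called higher in males, and the 13 Ste rows of the table together had 0, 0 and 7.96 RPM in females and 13.2, 204 and 440 in males. Su(Ste):CR42420 had 3 reads in the female libraries together and 26.3, 95.3 and 247 RPM in males, a ratio of pooled shares of 480 (exact 95% counting interval 164 to 2334). A stretch of that row and the matching stretch of Ste:CG33245 are shown because reads are credited to every copy they match. Capitals mark the 12 positions of 120 that differ, and over 701 aligned bases 632 (90.2%) were identical.
Su(Ste):CR42420, chrY:905175-905294, minus strand: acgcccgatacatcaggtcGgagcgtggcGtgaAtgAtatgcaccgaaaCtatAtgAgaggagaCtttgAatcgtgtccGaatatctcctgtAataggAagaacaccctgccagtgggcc
Ste:CG33245, chrX:14049574-14049693, minus strand: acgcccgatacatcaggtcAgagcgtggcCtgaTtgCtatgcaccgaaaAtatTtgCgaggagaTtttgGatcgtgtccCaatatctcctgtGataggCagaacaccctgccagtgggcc

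Since 1 mismatch was allowed in mapping, reads of Su(Ste) RNA can be counted at Ste rows and the reverse, and how many were was not tested. Ste:CG33245 had 1 read in the female libraries together and 1.32, 16.5 and 35.5 RPM in males. Its lowest male library held 1 read, and Ste:CG33236, Ste:CG33238 and Ste12DOR had a male library at 0.

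Male germline mRNAs of other chromosomes were on the same side. The 4 S-Lap genes tested encode leucyl aminopeptidases of the sperm, and all were higher in males: S-Lap1 had 1 read in females against 22.1, 40.1 and 92.1 RPM in males. S-Lap4, S-Lap2 and S-Lap8 had 0 female reads and were at least 128-fold, at least 112-fold and at least 65.9-fold higher in males. CG31740 had 1 female read against 14.1, 62.1 and 122 RPM in males, and CG5089 was at 0 in females and at least 126-fold higher in males. The sperm gene Mst98Cb was at 0 in females and at least 53.9-fold higher in males, and betaTub85D, the testis beta-tubulin, had a log2 ratio of -2.48 ± 0.44. In the list of 4 testis and sperm transcripts 3 were higher in males, beside 42.5% of all transcripts. Of these 3, Mst36Fb holds a run of A of 27 bases, described below, and its ratio turned to 0.097 with the library size from miRNA and transposon reads. The exception was bol, a meiosis gene, at 2.45, 6.10 and 23.3 RPM in females and 0, 0.84 and 3.54 in males (log2 3.08 ± 0.57). Accessory gland transcripts had 3 rows, none of which reached the read minimum, with summed 0 RPM in every female library and 6.59 to 32.1 RPM in males.

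**Figure D3:**
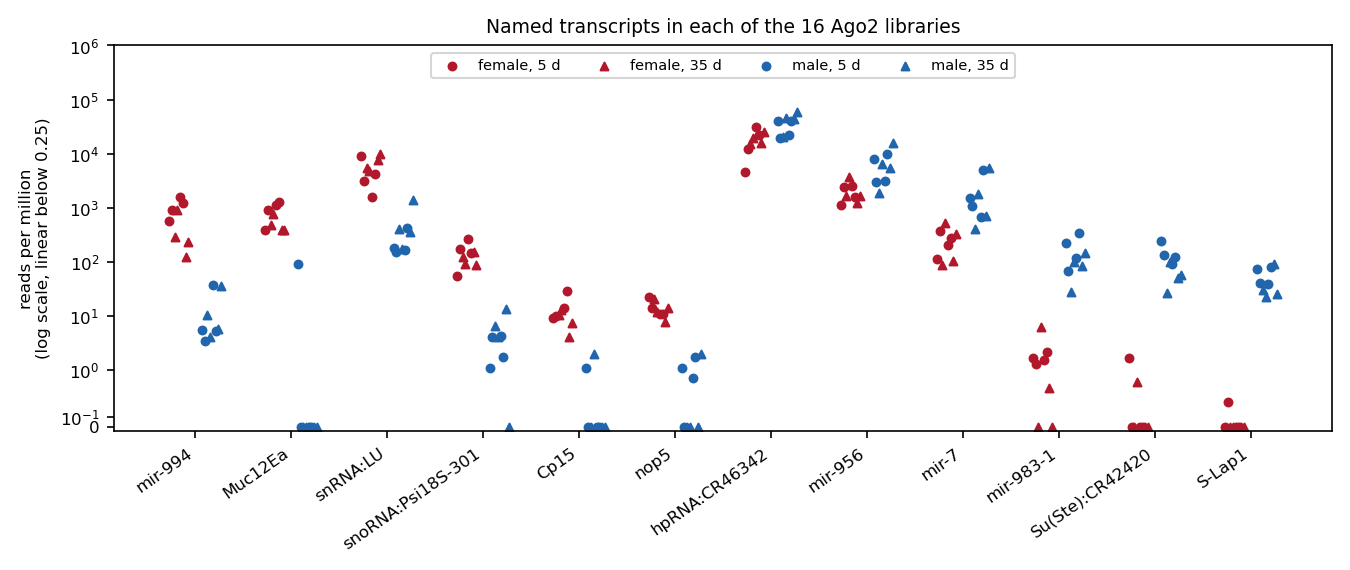
RPM (y axis, log scale, linear below 0.25) of 12 named transcripts in each of the 16 Ago2 libraries, females in red and males in blue, circles at 5 d and triangles at 35 d. The groups separate for mir-994, Muc12Ea, snRNA:LU, snoRNA:Psi18S-301, Cp15, nop5, mir-983-1, Su(Ste):CR42420 and S-Lap1, and overlap for hpRNA:CR46342, mir-956 and mir-7.

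Protein-coding rows of the female side included eggshell and early embryo genes. Cp15 and Cp36, which encode chorion proteins of the eggshell, had 4.14, 10.3 and 28.4 RPM and 1.84, 9.96 and 25.5 RPM in females, with 2 male reads each, so the ratios of pooled shares were 43.3 (exact 95% counting interval 11.8 to 361) and 36.6 (9.94 to 306). Another eggshell gene, Cp38, had a log2 ratio of -1.33 ± 0.43, was not called with TMM factors (adjusted p = 0.068), and turned to 0.45 with the library size from miRNA and transposon reads. Cp38 is among the rows with a long run of A or T described below (20 bases), and the part of such reads in its ratio was not tested. fs(1)Ya, a maternal gene of the nuclear envelope needed at the start of embryogenesis, had 1.46, 6.91 and 11.4 RPM in females and 0 male reads, at least 17.8-fold higher in females. Muc12Ea, a mucin gene on the X chromosome, had 388, 616 and 1281 RPM in females. Its male reads, 83 in all, came from 1 library, dFOXO-null at 5 d of replicate 1, which stood at 92.0 RPM, and the other 7 male libraries were at 0. CG40813 and CG41562, near copies of each other on the X chromosome, had log2 ratios of 5.40 ± 0.52 and 5.38 ± 0.51. lncRNA:flam, the flamenco piRNA cluster of the ovary, had 0, 2.77 and 18.4 RPM in females and 0, 0.55 and 1.94 in males (log2 2.37 ± 0.73).

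RnrS, Caf1-180 and BigH1 were named after their values were seen. RnrS, the small subunit of ribonucleotide reductase, had 2.52, 7.22 and 16.4 RPM in females and 2 male reads. Caf1-180, the large subunit of the chromatin assembly factor, had 3.67, 17.7 and 38.7 RPM in females and 0, 1.04 and 2.65 in males (log2 4.18 ± 0.50). BigH1, the linker histone of the germ line and early embryo, had a log2 ratio of 2.90 ± 0.53. All 24 tested rows of the replication-dependent histone cluster on arm 2L, in 8 groups of near copies, were higher in females, at log2 ratios of 1.56 to 3.54. All 111 rows of that cluster in the table summed to 1914, 3661 and 5440 RPM in females and 56.7, 642 and 1098 in males. The tested rows held members of each kind, with 10 His1, 4 His2A, 3 His2B, 2 His3 and 5 His4 rows. snRNA:U7, which directs the 3′ end processing of histone mRNA, had 229, 411 and 818 RPM in females and 149, 201 and 277 in males (log2 1.02 ± 0.30).

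Also named after their values were seen, nop5 and Nop56, core proteins of box C/D snoRNPs, had log2 ratios of 4.23 ± 0.56 and 3.17 ± 0.58, and the methyltransferase gene Fib 3.14 ± 0.52. Gar1, a protein of box H/ACA snoRNPs, was at 3.28 ± 0.61. Of 18 ribosomal protein genes 7 were called higher in females and 1 higher in males, with 16 and 1 under TMM factors. The shares over all transcripts were 22.4% and 42.5%, with 340 and 340 of 1132 under TMM factors. Among them, RpL22 had 15.5, 27.9 and 41.2 RPM in females and 6.09, 14.5 and 21.2 in males (log2 0.99 ± 0.34).

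Box H/ACA guides of pseudouridylation, named snoRNA:Psi, were called higher in females in 59 of 84 rows and higher in males in 1, with a median log2 ratio of 1.42 (72 and 0 with TMM factors). Box C/D guides of methylation, named snoRNA:Me, were called higher in females in 12 of 38 rows and in males in 7, with a median of 0.15. The difference between the kinds was not tested. Among the former, snoRNA:Psi28S-1135b, in an intron of RpS5a, had a log2 ratio of 3.39, and among the latter snoRNA:Me28S-C788a had 2.73 and snoRNA:Me18S-G1358a -2.39. Of 51 snoRNAs hosted in introns of ribosomal protein genes, 29 were higher in females and 2 higher in males, near the rate of all snoRNAs. Of all 172 snoRNAs tested, 87 were higher in females and 15 higher in males, beside 22.4% and 42.5% of all transcripts. The 2 U3 rows were not called, at log2 ratios of -0.19 and -0.16, nor were the 5 snRNA:U1 rows, at log2 ratios of -0.20 to -0.19.

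A pair of small RNAs whose female and male libraries did not overlap are shown in full. snRNA:LU lies within FASN2 on the same strand. snoRNA:Psi18S-301 has the ACA box 3 bases from its 3′ end, in capitals, as box H/ACA snoRNAs do.
snRNA:LU, chr2L:3046765-3046880, plus strand: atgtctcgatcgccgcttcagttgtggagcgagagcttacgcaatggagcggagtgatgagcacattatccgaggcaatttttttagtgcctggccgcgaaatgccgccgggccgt
snoRNA:Psi18S-301, chr3R:20574906-20575043, plus strand: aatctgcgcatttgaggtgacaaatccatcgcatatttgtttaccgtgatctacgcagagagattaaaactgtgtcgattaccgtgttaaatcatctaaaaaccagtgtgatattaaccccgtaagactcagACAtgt

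snRNA:LU had 1563, 5194 and 9825 RPM in females and 152, 265 and 1418 in males (log2 4.05 ± 0.39, edgeR adjusted p = 1.86e-11). snoRNA:Psi18S-301 had 54.5, 135 and 268 RPM in females and 0, 4.04 and 13.6 in males (log2 4.92 ± 0.46, edgeR adjusted p = 9.18e-12). Neither overlapped between the sexes, in contrast to snoRNA:U3:9B (4549, 34942 and 88011 RPM in females against 20505, 36004 and 51856 in males).

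Pseudogene copies of 28S rRNA on the X chromosome were among the rows behind the higher pseudogene share of females. Of 6 rows 5 were higher in females, and their summed RPM was 144721, 209887 and 392759 in females against 58951, 83922 and 112294 in males, with no overlap. 28SrRNA-Psi:CR45860 had 31211, 43813 and 103550 RPM in females against 5483, 14227 and 21576 in males (log2 1.88 ± 0.23). The 5S rRNA rows went the other way, with 19 of 20 higher in males, beside 42.5% of all transcripts, at a median log2 ratio of -0.87. These 20 rows form 4 groups of near copies, and with near copies counted once 2 groups were called higher in males. With TMM factors 1 row was higher in females and 1 in males. The 4 5S pseudogene rows were all called higher in males (2 with TMM factors and 2 with median-of-ratios factors), and 5SrRNA-Psi:CR33371 did not overlap (86.7, 146 and 293 RPM in females, 523, 979 and 2697 in males). No tRNA row was called higher in females and 110 of 195 were called higher in males, beside 22.4% and 42.5% of all transcripts. With TMM factors these counts were 0 and 66, beside 340 and 340 of 1132 over all transcripts. Median-of-ratios factors gave 8 and 48, beside 370 and 284. The 195 rows form 66 groups of near copies, and with near copies counted once 0 were called higher in females and 34 in males. 7SLRNA, the RNA of the signal recognition particle, had a log2 ratio of -1.35 ± 0.29, which turned to 0.47 with the library size from miRNA and transposon reads.

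Hairpin RNA genes are a known source of Ago2 siRNAs. hpRNA:CR46342, a tandem array on the X chromosome, is shown by 1 unit of its repeat, in which the bases in capitals, from 54 to 203 of the 283, align to their own reverse complement with 118 of 150 identities.
hpRNA:CR46342, chrX:4924289-4924571, minus strand: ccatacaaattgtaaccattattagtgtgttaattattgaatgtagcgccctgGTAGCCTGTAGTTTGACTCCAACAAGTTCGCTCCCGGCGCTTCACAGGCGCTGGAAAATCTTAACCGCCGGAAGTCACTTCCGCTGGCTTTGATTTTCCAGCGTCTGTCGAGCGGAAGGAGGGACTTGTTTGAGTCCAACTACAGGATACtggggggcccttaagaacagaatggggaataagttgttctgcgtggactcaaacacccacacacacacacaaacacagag

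hpRNA:CR46342 had 4563, 17530 and 30656 RPM in females and 19260, 39887 and 59413 in males (log2 -1.05 ± 0.26, edgeR adjusted p = 7.6e-04). Males were higher in 7 of 8 pairs and the groups overlapped. With TMM factors the log2 ratio was -0.62 and the adjusted p was 0.052, so the call depended on the scaling, and with the library size from miRNA and transposon reads the direction turned, to 0.90. hpRNA:CR32207 had 0.84, 6.57 and 11.0 RPM in females and 9.79, 15.9 and 38.8 in males (log2 -1.53 ± 0.39), stayed called with TMM factors (adjusted p = 0.015), and turned to 0.32 with that library size. Rows of the RNA interference machinery numbered 2 and lay under the read minimum, and the listed endogenous siRNA targets had 0 rows.

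A large part of the male-side mRNA rows shared a sequence feature. Of 536 mRNA rows tested, 133 (24.8%) held in their exons a run of 20 or more A or T bases with at most 1 other base, a threshold set after the values were seen. Of these 127 were called higher in males and 1 higher in females, with a median log2 ratio of -1.33, and 5 were not called. Reads were credited to every place where they aligned, so 1 read of A or T can count at many of these rows. The 127 calls are therefore not separate observations, and how many reads the rows share was not tested. In the 403 rows without such a run 89 were higher in males, 133 were higher in females and the median was 0.31. With TMM factors 99 of the rows with a run were higher in males and 1 in females, and with median-of-ratios factors 77 and 1. For runs of 20 to 22 bases, 70 of 76 were higher in males scaled to the total and 23 with median-of-ratios factors. All 57 rows with a run of 23 or more were called higher in males, while with TMM factors 56 were and with median-of-ratios factors 54 were. The counts of these 57 rows followed each other across the 16 libraries, with a median pairwise correlation of 0.995, against 0.148 among the rows without a run of 20, as a description over libraries that share depth and base composition. Of 768 mRNA rows under the read minimum, 2 held a run of 20 or more, so the read minimum was not independent of the run. Runs of T and of A occurred, as in the untranslated regions of msl-3, His2Av and Mst36Fb, shown here with the run in capitals and 1 base on either side.
msl-3, chr3L:7123298-7123324, minus strand: aTTTTTTTTTGTTTTTTTTTTTTTTTTTg
His2Av, chr3R:26868924-26868949, plus strand: cAAAAAAAAAAAAAAAAAAAAAAAAAAc
Mst36Fb, chr2L:18675049-18675075, minus strand: cAAAAAAAAAAAACAAAAAAAAAAAAAAg

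msl-3 had 28.1, 90.8 and 229 RPM in females and 124, 212 and 824 in males (log2 -1.53 ± 0.35). It encodes a subunit of the dosage compensation complex of the male X chromosome, and mof, the acetyltransferase of that complex, had a log2 ratio of -1.06 ± 0.36 that was not called with TMM factors. With the library size from miRNA and transposon reads these ratios were 0.12 and 0.65. Both hold a run, of 27 and 22 bases, and the counts of msl-3 correlated with those of the other 132 rows with a run at a median of 0.977. The histone variant gene His2Av (log2 -1.48 ± 0.34), the testis gene Mst36Fb (log2 -1.54 ± 0.35) and RpL7A (log2 -1.33 ± 0.36), all called higher in males, hold runs of 26, 27 and 23 bases, and their ratios turned to 0.20, 0.097 and 0.36 with that library size. The part of reads from such runs in the ratios of these rows was not tested. Summed over the 133 rows, RPM was 1958, 5559 and 13030 in females and 7651, 12125 and 45566 in males.

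**Figure D4:**
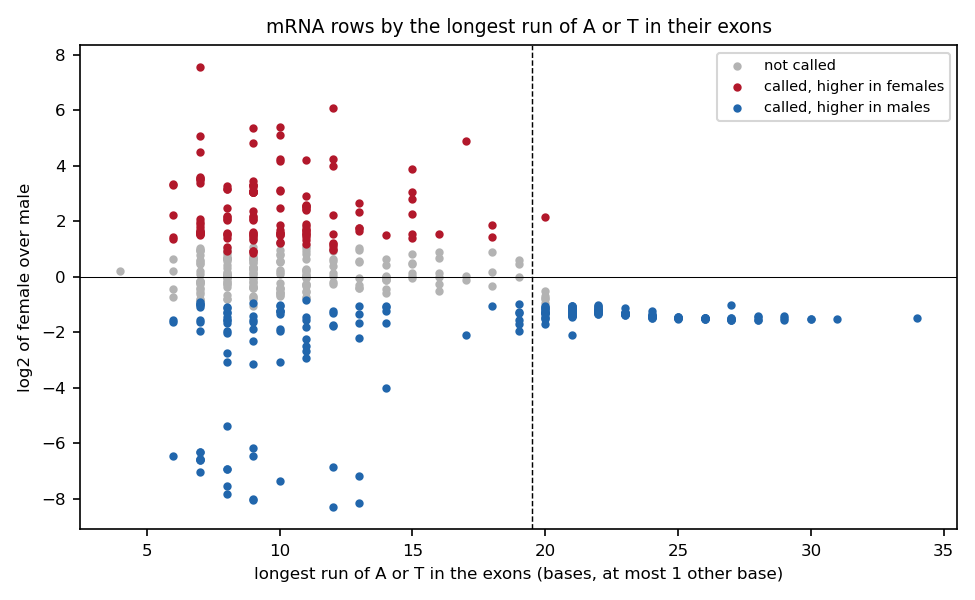
Each point is 1 of the 536 mRNA rows, with the longest run of A or T in its exons (bases, at most 1 other base) on the x axis and the log2 ratio of female over male on the y axis, coloured by call, and the dashed line marks runs of 20 or more. Left of the line the ratios spread to both sides, and right of it nearly all lie between -2 and 0.

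The sex ratios were estimated at each age and in each genotype. At 5 d 620 transcripts (54.8%) were called, 188 higher in females and 432 higher in males, and at 35 d 426 (37.6%), 192 and 234. In wDah flies 425 (37.5%) were called, 165 (14.6%) of them higher in females, and in dFOXO-null flies 641 (56.6%). The differences themselves did not pass the test: edgeR called 0 transcripts for a sex ratio that differed by age, with 114 at an unadjusted p under 0.05, and 0 for one that differed by genotype, with 69. With TMM factors these counts were 0 and 2. The smallest p for age belonged to snoRNA:Psi28S-1135c, with a log2 ratio of 1.00 at 5 d and 3.88 at 35 d (difference 2.87 ± 0.79, adjusted p = 0.418). snoRNA:Psi28S-2949 and 28SrRNA-Psi:CR41609 followed, the latter with 2.39 at 5 d and 0.67 at 35 d. For genotype the smallest p belonged to CG43798 (adjusted p = 0.085), Muc12Ea and snoRNA:Me28S-G3113a, and that of Muc12Ea rests on the 1 male library with reads.

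Ago1 libraries of the same lysates showed which of these ratios differed between the precipitates. Over 1094 transcripts tested in all 32 libraries, the sex ratio in Ago2 differed from that in Ago1 for 17 (1.55%), with 217 at an unadjusted p under 0.05. The difference was positive for 4 (0.366%) and negative for 13 (1.19%), and 12 of the 17 were miRNA hairpins, of which 11 were negative. In that fit sex ratios were called for 63.8% of transcripts in Ago2 libraries (44.7% higher in males) and for 54.0% in Ago1 libraries. With the 2 precipitates of a lysate as a block 131 transcripts were called, the 17 among them, with 118 negative and 13 positive. With TMM factors 13 of the 17 stayed called. Without the Ago1 library of wDah females at 35 d of replicate 2 the count was 108, without that of wDah males at 35 d of replicate 2 it was 59, and without the Ago2 library of dFOXO-null males at 5 d of replicate 2 it was 26.

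mir-311, of the miR-310 cluster, had 1347, 2286 and 6121 RPM in females and 414, 923 and 2025 in males in Ago1 (log2 1.52), but 23.4, 36.6 and 55.1 in females and 39.5, 65.0 and 317 in males in Ago2 (log2 -1.46), a difference of -2.98 ± 0.45 (edgeR adjusted p = 1.2e-04). The direction in Ago2 rests on the total: with the library size from miRNA and transposon reads it was 0.70, and miR-311-3p had a median of 537 RPM of those reads in females and 316 in males, higher in females in 8 of 8 pairs. mir-310, mir-312 and mir-313 had differences of -2.50, -3.01 and -2.48. The ovary miRNAs mir-989 and mir-318 were higher in females in both precipitates, at log2 ratios of 8.36 and 7.79 in Ago1, and their ratios in Ago2 were lower by 4.02 ± 0.72 and 3.95 ± 0.72 on the log2 scale. For mir-994 the difference was -2.53 ± 0.78 and did not pass (adjusted p = 0.115). The mir-308 hairpin row went the other way, with 1.84, 8.46 and 54.5 RPM in females and 0, 1.21 and 2.65 in males in Ago2, and 0.51, 4.20 and 8.32 against 0, 7.25 and 15.8 in Ago1 (difference 3.30 ± 0.80). Both hairpin RNA genes were nearer to equal in Ago2 than in Ago1: hpRNA:CR46342 had 5824, 8986 and 14934 RPM in females and 33977, 53922 and 106226 in males in Ago1, and its log2 ratio there was -2.54 (difference 1.49 ± 0.38). Over 95 miRNA hairpins the median difference was -0.98, and over all transcripts it was -0.31.

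**Figure D5:**
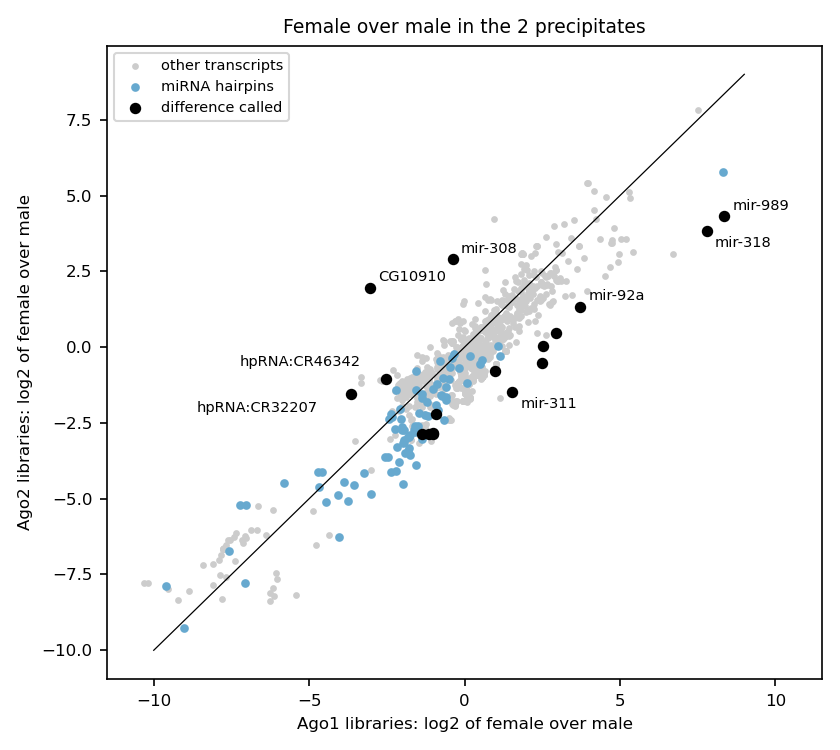
Log2 ratio of female over male for each of the 1094 transcripts in Ago1 libraries (x axis) and Ago2 libraries (y axis), with the line of equal ratios, miRNA hairpins in blue and the 17 transcripts whose ratios differed in black. The miR-310 cluster, mir-318, mir-989 and mir-92a lie below the line and hpRNA:CR46342, mir-308 and CG10910 above it.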

How the data were processed

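Small RNAs from Ago2 precipitates of 16 lysates (2 per genotype, sex and age) were analysed, with the 16 Ago1 libraries of the same lysates used for 1 comparison. Per the study's methods, the authors trimmed reads with Trim Galore, removed reads over 25 nt, mapped them to dm6 with a Bowtie wrapper at 1 mismatch with all valid alignments reported, and counted transcripts with featureCounts. The deposited counts before normalization were used as they stood, and the deposited normalized tables and those of 21 nt reads were not used here. A second deposited table of counts on mature miRNAs and transposons gave the miRNA arms. Of 2303 rows, 2299 matched the Ensembl annotation of the BDGP6 (dm6) assembly, which gave names and classes, and sequences were read from the RefSeq genome of that assembly.

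The sex test was edgeR 4.0.16 (quasi-likelihood, R 4.3.3; limma 3.58.1) with blocks for genotype, age and experiment and the column total as library size, at a Benjamini-Hochberg adjusted p of 0.05. DESeq2 1.42.0, other scalings, filters, row choices, blocks and leaving out each library were alternatives. Shares of classes were compared by exact permutation over 8 pairs (256 arrangements, SciPy 1.17.1). Floors and intervals use 3 reads and 95% and cover counting error only. The study kept females and males together until collection, but the labels do not say what the experiment number marks. Deviations of female and male libraries of 1 experiment number correlated in all 4 sets (0.177, 0.451, 0.245 and 0.199). Each value rests on 1 difference between replicates, over transcripts that share reads. Pairing by experiment number was therefore assumed and could not be established. Replicates differed beyond sampling noise, with a chi-square per degree of freedom of 59.9 or more. On simulated data for this comparison (1132 transcripts), 30 of 100 2-fold changes, 96 of 100 4-fold changes and 8 of 932 unchanged transcripts were called.

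The transcripts and the gene lists were chosen with earlier results of these data known. Named transcripts were, among those called and of the same direction in 8 of 8 pairs, in each direction the 8 with the largest log2 ratio and the 8 with the highest mean share, called list members, and the 3 smallest p of each interaction. Others, among them snRNA:LU, nop5, Nop56, Fib, Gar1, RnrS, Caf1-180, BigH1, mir-92a, mir-308, mir-263b, snRNA:U7, S-Lap2 and S-Lap8, were chosen after their values were seen. Of the lists, the maternal-zygotic miRNA cluster and mitochondrial transcripts had 0 rows, and the 1 fat body transcript tested, Apoltp, was not called.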

Additional observations from a re-analysis of the deposited data

Results flagged for a closer look

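The values of 78 groups of 8 libraries were tested for a library far from the rest, and 12 had one. The test flags about 1 in 20 groups by chance when values are normally distributed. Where all other libraries of a group are at 0, any read flags it, so the number flagged cannot be set against that rate. In females these were the tRNA share of wDah at 5 d of replicate 1 (7.45%, next 3.65%), Cp15 in wDah at 5 d of replicate 2 (28.4 RPM), 28SrRNA-Psi:CR45860 in wDah at 5 d of replicate 1 (103550 RPM, next 56074) and mir-986 in dFOXO-null at 35 d of replicate 2 (1026 RPM, next 466). Rows of the male side had a female library with 1 to 3 reads: Su(Ste):CR42420 and Su(Ste):CR42444 at 1.68 and 2.52 RPM in dFOXO-null at 5 d of replicate 1, CG31740 at 0.73 RPM in wDah at 5 d of replicate 2, Su(Ste):CR42432 at 0.612 RPM in dFOXO-null at 35 d of replicate 2 and S-Lap1 at 0.257 RPM in dFOXO-null at 5 d of replicate 2. In males these were Muc12Ea at 92.0 RPM and Su(Ste):CR42432 at 147 RPM, both in dFOXO-null at 5 d of replicate 1, and CG44325 at 0.97 RPM in wDah at 35 d of replicate 1.

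Sex ratios differed between the precipitates for 17 transcripts by edgeR's interaction test. The log2 ratio in Ago2 minus that in Ago1 was -4.02 for mir-989, -3.95 for mir-318, -3.01 for mir-312, -2.98 for mir-311, -2.50 for mir-310, -2.48 for mir-313 and -2.38 for mir-92a. It was -1.83 for mir-31a, -1.82 for mir-31b, -1.77 for mir-9b, -1.73 for mir-7, -1.50 for 5SrRNA-Psi:CR33371 and -1.30 for 5SrRNA-Psi:CR33356. The last 4 of these were not called with TMM factors (edgeR adjusted p = 0.066, 0.059, 0.152 and 0.152). On the other side it was 1.49 for hpRNA:CR46342, 2.12 for hpRNA:CR32207, 3.30 for mir-308 and 5.02 for CG10910. The value of CG10910 rests on few reads. In Ago2 it had 0, 4.28 and 43.4 RPM in females and 0, 0.84 and 5.87 in males. In Ago1 it had 0, 0 and 9.90 RPM in females and 0, 2.76 and 40.0 in males.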

How the results depend on the processing

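The alternatives with near copies counted once, library sizes without rRNA or from the miRNA and transposon table, rRNA with its pseudogenes as a class, and the precipitate comparison without each library were chosen after seeing the data. The counts in each direction, 254 and 481, moved by over 1.5 times as follows. Higher in males were 284 with median-of-ratios factors, 312 with near copies counted once, 251 without rRNA in the library size and 272 within experiment 2, where 464 were called in all. Higher in females were 422 with no filter, 136 within experiment 1 and 118 at a mean of at least 20 reads, where 481 were called in all. Per reads on miRNAs and transposons, the split was 680 higher in females and 80 higher in males with a median log2 ratio of 1.40, so the side of transcripts with modest ratios depends on the total taken as reference. Under that library size 29 of 197 named transcripts changed sign, to log2 ratios of 0.12 (msl-3), 0.65 (mof), 0.45 (Cp38), 1.69 (Apoltp), 0.054 (Mal-A1), 0.42 (Amy-d), 1.11 (gammaTry), 1.24 (alphaTry), 1.99 (yip7), 0.90 (hpRNA:CR46342), 0.32 (hpRNA:CR32207), 0.20 (His2Av), 0.70 (mir-311), 1.59 (mir-312), 1.42 (Act88F), 1.57 (Act57B), 0.13 (ninaE), 0.38 (Arr2), 0.36 (RpL7A), 0.097 (Mst36Fb), 0.22 (mir-11), 0.47 (7SLRNA:CR42652), 0.40 (mir-956), 1.00 (snRNA:U5:63BC), 0.21 (Cyp4g1), 0.80 (tRNA:Gly-GCC-1-1), 1.28 (mir-9b), 1.72 (snRNA:U1:21D) and 1.85 (snoRNA:U3:9B). Under TMM factors 0 changed sign and 6 lost their call, and without each library in turn 0 changed sign.

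Without each library in turn 694 to 766 transcripts were called, 213 to 266 higher in females and 461 to 500 higher in males. The pairs as a replicate block gave 726 calls and no replicate block 690. Without the block the rRNA difference of -6.89 points had an exact p of 0.0247, against 0.0547 over the pairs, both before adjustment over the classes. TMM factors gave 2 transcripts for the genotype interaction, and leaving out libraries 0 to 5, with 5 without wDah females at 5 d of replicate 1, 3 without dFOXO-null males at 35 d of replicate 2, and 1 without any of dFOXO-null females at 35 d of replicate 1, wDah females at 5 d of replicate 2, dFOXO-null females and males at 5 d of replicate 2 and wDah males at 35 d of replicate 2. The precipitate comparison gave 13 with TMM factors, 131 with lysates as a replicate block and 13 to 108 without each library.

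Class differences within experiments 1 and 2, in points, where 4 pairs cannot pass, were -0.979 and -3.14 for miRNA hairpins, -2.35 and -4.19 for tRNA, 18.4 and 17.2 for pseudogenes, -5.57 and -6.20 for other non-coding RNA and 11.3 and 10.7 for rRNA with its pseudogenes. snoRNA reversed to -1.92 points within experiment 1, to -0.157 on the log2 scale, and to -0.458 points without the wDah pair at 35 d of replicate 2. Other non-coding RNA had an exact p of 0.0625 on the log2 scale (-0.545), against 0.0391 in percent, both before adjustment over the classes. Without each pair the ranges were -0.458 to 2.42 for snoRNA, -8.12 to -5.33 for rRNA, -1.03 to -0.445 for mRNA, -7.59 to -3.88 for other non-coding RNA, 8.61 to 13.6 for rRNA with its pseudogenes, -2.33 to -1.55 for miRNA hairpins, 16.3 to 18.9 for pseudogenes and -3.83 to -2.73 for tRNA. A row at the mean minimum of 5 reads rests on few reads per library, and 30 of 100 simulated 2-fold changes were found.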

Other observations

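Further transcripts of the female side, named after their values were seen, included subunits of the cytosolic chaperonin, with log2 ratios of 2.22 for CCT2, 2.24 for CCT8 and 1.43 for CCT4, and Ssrp, a subunit of the histone chaperone FACT, with 2.06. On the X chromosome 57 of 223 tested rows were higher in females and 114 higher in males (76 and 91 with TMM factors), beside 22.4% and 42.5% of all tested transcripts (340 and 340 of 1132 with TMM factors). Of the 20 other non-coding rows that hold a run of 20 or more A or T bases, 19 were higher in males, with a median log2 ratio of -1.40. As for the mRNA rows, 1 read can count at several of them.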
